A study of Mus musculus with 4 samples.

Results

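Gamma-delta intraepithelial T cells of the mouse small intestine were picked out of a single-cell RNA series by the transcripts in each droplet. They numbered 241 of the 25788 cells that passed the quality limits (44277 barcodes in all). A barcode was kept with at least 500 unique molecular identifiers (UMIs, 1 per captured transcript), at least 250 genes and at most 25% mitochondrial UMIs. A kept cell was called gamma-delta with at least 2 UMIs of Cd3d, Cd3e and Cd3g together, at least 2 of Trdc, the constant segment of the T cell receptor (TCR) delta chain, and none of Trac, the alpha-chain constant segment. It also had no Cd4 or Cd8b1 UMI, under 1% of UMIs from Fabp1, an enterocyte gene, and under 0.2% from Jchain, a plasma cell gene. These limits are measured values, so the genes in them are given as description only.

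Gamma-delta T cells carry a receptor of a gamma and a delta chain and are abundant among the lymphocytes that sit between the epithelial cells of the gut. Those of the small-intestinal epithelium often carry CD8 as a homodimer of alpha chains, use receptors built on few gamma variable segments, and store granzymes, the proteases of cytotoxic granules. They share this compartment with CD8-alpha-only alpha-beta T cells, conventional CD8 and CD4 T cells and innate lymphocytes.

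All mice were C57BL/6J males, and their feed was rich in fat and supplemented with l-NAME, which blocks nitric oxide synthases. In the IPA group the diet also held indolepropionic acid at 562.5 mg per kg (2 samples). The control group had the same diet without it (2 samples). Feeding began at 8 weeks of age and ran for 7 weeks, and each sample was a pool of 2 mice. Live cells of the epithelial layer, released with EDTA and DTT, were sorted and assayed with droplet chemistry that reads transcript 3′ ends. The 4 libraries are told apart by the number that ends each barcode, and nothing in the labels or headers says which sample a number stands for. No diet comparison could therefore be made. Values are given for libraries 1 to 4 in the order of that number, which is a name and not a replicate number, with no mean or p-value over libraries.

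The libraries held 173564399 to 209357877 UMIs over 8957 to 11987 barcodes, and 6174 to 7122 cells each were kept, with medians of 22601 to 27622 UMIs. Gamma-delta cells were shallower, with a median of 3551 UMIs in library 1 (851 to 11248) and 3700 in library 3 (1334 to 104357), and 1581 and 1696 genes. Across libraries, 214 barcode sequences occurred more than once, 75 of them among kept cells. A gamma-delta cell shared its sequence with a kept cell of another library in 1 case, and no sequence was shared by 2 gamma-delta cells. Doublets were not removed for the values given here. Intervals are exact 95% Poisson or Clopper-Pearson intervals and cover counting error only.

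Gamma-delta cells were unevenly spread over the libraries. Library 1 held 47, or 0.761% of its kept cells (0.560 to 1.01%). Library 2 held 0 of 7122, for which a limit of 3 cells is 0.0421% and the exact interval reaches 0.0518%. Library 3 held 193, or 3.06% (2.65 to 3.52%), and library 4 held 1 of 6185, or 0.0162%. Cells with Cd3 transcripts were spread in the same way, at 330, 4, 1324 and 6 in libraries 1 to 4. Among Cd3 cells within the Fabp1 and Jchain limits, gamma-delta cells made up 47 of 317 in library 1, or 14.8% (11.1 to 19.2%). They made up 193 of 1246 in library 3, or 15.5% (13.5 to 17.6%), so the share within T cells of these libraries differed by less than counting error. Levels are therefore described for libraries 1 and 3 only. Whether the recovery of lymphocytes from the tissue differed between libraries was not tested.

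**Figure D1:**
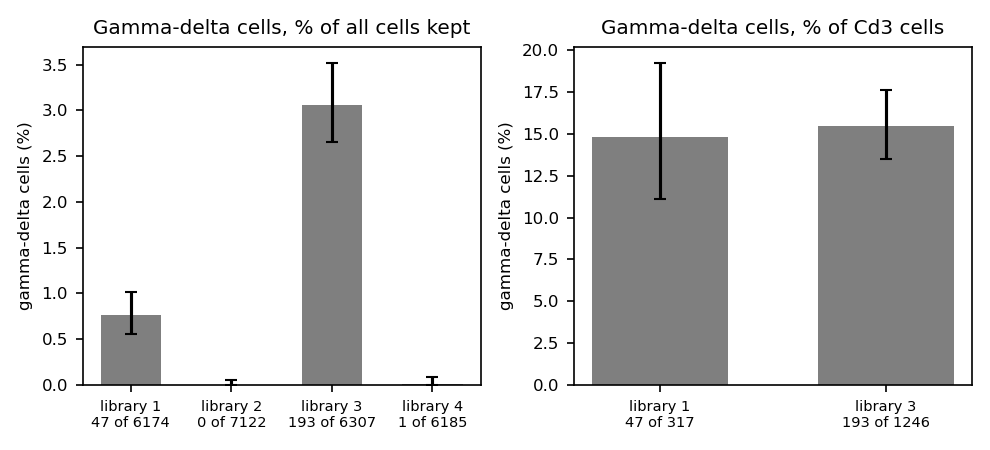
Share of gamma-delta cells among all kept cells in libraries 1 to 4 (left) and among Cd3 cells within the Fabp1 and Jchain limits in libraries 1 and 3 (right), in percent, with 95% Clopper-Pearson intervals as bars. The shares of kept cells were 0.761%, 0%, 3.06% and 0.0162%, whereas the shares of Cd3 cells were 14.8% and 15.5%.

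The 5 marker genes of the label, Trdc, Tcrg-C1, Cd3g, Cd8a and Gzma, were read first. Of these, Trdc and Cd3g are in the rule, and all 5 were detected in libraries 1 and 3. Levels are CPM, the UMIs of a gene scaled to 1e+06 UMIs of the class, from 174403 UMIs in library 1 and 939602 in library 3. The 5 genes summed to 27276 CPM in library 1 and 14192 in library 3. In CD8-alpha-only alpha-beta T cells, described below, they summed to 27220 and 23575 CPM. Those cells held 4 of the 5, all but Trdc, which their rule excluded. Detecting the 5 markers is therefore no check of the label apart from the rules. Trdc stood at 1307 CPM (1143 to 1488) in library 1 and 1174 CPM (1106 to 1245) in library 3, with a median of 4 and 5 UMIs per cell. Cd3g, a CD3 signalling subunit, was at 3125 CPM (2868 to 3399) and 2329 (2232 to 2428). The CD8 alpha-beta T list of 5 genes summed to 2076 CPM in library 1 and 1687 in library 3, all of it from Cd8a, Trbc2 and Gzmk, since Trac and Cd8b1 were at 0 by the rule. The CD4 T list of 6 genes summed to 17.2 and 6.39 CPM, with Cd40lg and Foxp3 at 0, and Cd4 and Trac at 0 by the rule. The NK and ILC1 list of 7 genes summed to 109 and 111 CPM with Klra8 and Klra4 at 0, and the B list of 6 genes to 57.3 and 41.5 CPM with Ms4a1 and Pax5 at 0. Of 11 dendritic cell and macrophage markers, 2 were detected in each library. The plasma cell list summed to 235 and 198 CPM, the mast cell list to 138 and 61.7, the ILC2 and ILC3 list to 40.1 and 67.1, the stromal list to 28.7 and 14.9, the enteroendocrine list to 0 and 18.1 and the tuft list to 0 and 2.13.

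Epithelial transcripts were present in every gamma-delta droplet. All 241 cells held Fabp1, and the enterocyte list (8 of 8 genes detected) summed to 5831 CPM in library 1 and 17573 in library 3. The goblet list summed to 573 and 1368 CPM and the Paneth list to 470 and 779 CPM, with all 6 genes of each detected, and the stem cell list to 17.2 and 243 CPM. Cells over 10000 UMIs were looked at apart, a limit chosen after seeing the data. There was 1 such cell in library 1, with 6.45% of the gamma-delta UMIs, and 6 in library 3, with 21.3%. The deepest held 104357 UMIs, among them 4 of Trdc, 65 of Gzma, 253 of Epcam and 612 of Fabp1. The next held 41550 UMIs, with 6 of Trdc, 112 of Epcam and 333 of Fabp1. Without these cells the enterocyte list summed to 6007 CPM in library 1 and 12117 in library 3, and the stem cell list of library 3 to 39.2 CPM. The goblet and Paneth sums of library 3 were then 1606 and 812 CPM, slightly higher than with them. Epcam, an epithelial adhesion gene, then stood at 196 CPM in library 1 and 331 in library 3. The part of epithelial transcripts in the levels below was not tested beyond leaving out these cells.

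Near the limits of the rule, the levels shifted by steps. The 39 gamma-delta cells with exactly 2 Trdc UMIs held Tcrg-C1 at 652 CPM, and the 46 cells with 1 Trdc UMI, just outside, held it at 192 CPM. The 189 cells left out for a single Trac UMI held it at 988 CPM. The 11 cells inside with 0.5 to 1% Fabp1 had a median of 2216 UMIs, with Tcrg-C1 at 89.2 CPM and Epcam at 2125 CPM. Among them were the deepest gamma-delta cells, of 104357 and 41550 UMIs, with 253 and 112 Epcam UMIs. These pooled levels therefore describe mostly those deep cells. The 6 just outside, at 1 to 2% Fabp1, had a median of 34062 UMIs. The rule also left out many cells with delta-chain transcripts. Of 744 Cd3 cells with at least 2 Trdc UMIs, 247 (33.2%) had no Trac, 192 had 1 UMI and 305 (41.0%) had at least 2. In those 305 cells Tcrg-C1 was at 1049 CPM, and in the 477 cells with at least 2 Trac UMIs and no Trdc it was at 162 CPM.

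The gamma-chain constant segments were not used by the rule and were found in most of the cells. Tcrg-C1 (chr13:19214103-19217024, plus strand, GRCm38) was in 41 of 47 cells of library 1 (87.2%, 74.3 to 95.2%) and 150 of 193 of library 3 (77.7%). In enterocytes, which should lack it, 0.644% and 1.86% of cells held it. Median depths were 3551 and 3700 UMIs in gamma-delta cells and 32245 and 32862 UMIs in enterocytes. Its level was 786 CPM (660 to 929) and 726 (672 to 782). Tcrg-C2 (chr13:19304649-19307551, minus strand) was in 34 and 159 cells, at 608 and 509 CPM, and Tcrg-C4 (chr13:19344558-19352756, plus strand) in 34 and 151 cells, at 550 and 452 CPM. CD8-alpha-only alpha-beta T cells, described below, also held both, with Tcrg-C2 in 67.9% and 71.0% of cells at 508 and 523 CPM and Tcrg-C4 in 71.7% and 70.3% at 336 and 332 CPM. Neither of these segments was thus 2-fold apart between the classes. At least 1 of the 3 was found in 46 of 47 and 191 of 193 gamma-delta cells. Tcrg-C1 and Tcrg-C2 are near-identical copies, so their separate counts are uncertain. Cells with Tcrg-C1 but no Tcrg-C4 numbered 10 and 32, and cells with Tcrg-C4 but no Tcrg-C1 numbered 3 and 33.

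Variable segments were rarely captured. Trgv2 was in 22 and 73 cells, at 212 and 112 CPM. Tcrg-V7, the segment typical of gut gamma-delta cells, was in 7 and 24 cells, at 40.1 CPM (16.1 to 82.7) and 27.7 (18.1 to 40.6). All 8 of its UMIs in cells with only 1 of the Tcrg-C1 and Tcrg-C4 segments lay in the 42 cells with Tcrg-C1, and 0 in the 36 cells with Tcrg-C4. Tcrg-V1 was in 6 and 17 cells and Tcrg-V4 in 1 and 16. Of the delta segments, Trdv5 was in 1 and 12 cells and Trdv2-2 in 1 and 9. At 3′ ends these segments are seldom read, so a cell with none of them is not shown to lack them.

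Transcripts of the TCR beta constant segments were common in the gamma-delta cells. At least 2 UMIs of Trbc1 and Trbc2 together were found in 41 of 47 cells (87.2%) and 169 of 193 (87.6%). Trbc2 stood at 975 CPM (834 to 1133) in gamma-delta cells of library 1 and 921 (860 to 984) in those of library 3, against 1515 and 1503 CPM in CD8-alpha-only alpha-beta T cells. In enterocytes of the same libraries Trbc2 was at 0.213 and 1.29 CPM, and in B cells at 0 and 4.55 CPM. The levels in gamma-delta cells were thus above those in enterocytes and B cells and below those in CD8-alpha-only cells. Only 6 and 24 cells had at most 1 Trbc UMI. Given these transcripts, the counts do not settle whether the rule picked gamma-delta T cells alone. The cells are called gamma-delta by the rule.

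Genes whose symbols start with mt-, Rpl, Rps or Gm were left out of the ranking by abundance. The most abundant of the others were Ccl5, Malat1, Tmsb4x, Gzma, Actb, Eef1a1, Tpt1, Fau, Fabp2 and AW112010. UMIs at 3′ ends count molecules without scaling by length. Ccl5 encodes a chemokine stored by memory-type cytotoxic lymphocytes, Gzma is granzyme A, and Fabp2 is an enterocyte lipid carrier. Ccl5 was at 24621 CPM in library 1 and 12772 in library 3, and Gzma (chr13:113093825-113100981, minus strand) at 21043 (20368 to 21735) and 9222 (9029 to 9418). Gzmb, granzyme B, was at 3228 and 1169 CPM. All 3 were higher in library 1 than in library 3.

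Granzyme A was close to all or nothing in single cells. In library 1, 33 of 47 cells (70.2%, 55.1 to 82.7%) held at least 5 Gzma UMIs, 13 held none and 1 held 1 to 4. In library 3, 79 of 193 (40.9%, 33.9 to 48.2%) held at least 5, 97 none and 17 held 1 to 4. Among cells with at least 5, the median was 103 UMIs in library 1 and 82 in library 3. The share of such cells and their median were thus both higher in library 1. Thinned to 1000 UMIs a cell, which left out 2 cells of library 1 and none of library 3, 71.1% and 42.5% held Gzma, against 72.3% and 49.7% unthinned. In enterocytes 9.68% and 29.6% held a Gzma UMI at a level of 3.45 and 12.1 CPM. Single Gzma UMIs thus also occurred in enterocyte droplets, and whether free RNA or doublets gave them was not tested. Ccl5 was more even, with at least 5 UMIs in 42 of 47 (89.4%) and 170 of 193 cells (88.1%), and medians of 94 and 38 UMIs.

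**Figure D2:**
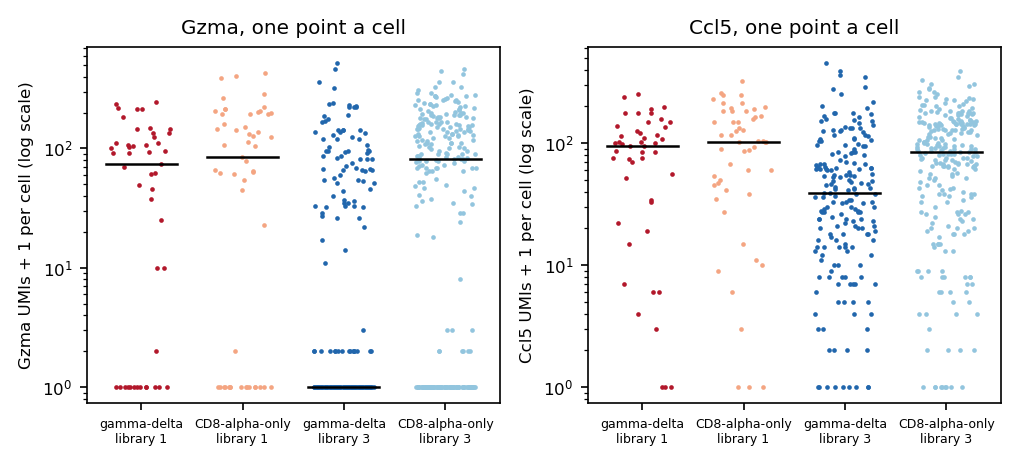
UMIs plus 1 per cell (log scale) of Gzma (left) and Ccl5 (right) in gamma-delta and CD8-alpha-only alpha-beta T cells of libraries 1 and 3, with 1 point a cell and black lines at the medians. Most cells held either 0 Gzma UMIs or at least 5. Among the latter the medians in libraries 1 and 3 were 103 and 82 UMIs in gamma-delta and 143.5 and 136 in CD8-alpha-only cells. Over all gamma-delta cells the Gzma median was 73 UMIs in library 1 and 0 in library 3.

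Other granule genes were lower. Gzmk was at 86.0 CPM in library 1 and 24.5 in library 3, and Prf1, the pore-forming perforin, at 86.0 and 22.4. Gzmm was at 0 in both. Nkg7, a granule membrane protein, was in 45 of 47 and 188 of 193 cells, at 1972 and 1397 CPM. Chemokines other than Ccl5 were Xcl1, an attractant of cross-presenting dendritic cells, at 528 CPM (425 to 647) and 910 (850 to 973), Ccl4 at 476 and 396, and Ccl3 at 183 and 69.2. Xcl1 was thus lower in library 1, the reverse of the granzymes. Ifng, Il17a, Il17f, Il22, Csf1, Fgf7 and Igf1 had 0 UMIs. A limit of 3 UMIs is 17.2 CPM in library 1 and 3.19 in library 3, and the exact intervals reach somewhat higher. Sox13, a transcription factor gene of the type 17 list, was at 5.73 and 3.19 CPM. Of the 12 genes of the type 17 list, 0 were abundant enough for the comparison with CD8-alpha-only cells. Il7r, on that list, was in 14.9% and 17.1% of gamma-delta cells and in 1.89% and 4.63% of CD8-alpha-only cells. Thinned to 1000 UMIs, these shares were 4.44% and 8.81% against 1.89% and 3.09%. Against conventional CD8, CD4 and NK and ILC1 cells of library 3, Il7r was at least 2-fold lower in gamma-delta cells.

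Of the 22 genes of the innate-like and NK receptor list, 11 were abundant enough for the comparison with CD8-alpha-only cells. Cd7 was at 3022 and 2552 CPM. Fcer1g, a signalling adaptor, was at 1789 CPM (1596 to 1999) in library 1 and 1517 (1439 to 1597) in library 3. The adaptor Tyrobp was at 1009 and 835 CPM but in fewer than 1 in 2 cells, 20 of 47 and 91 of 193. The receptor genes Klrd1, Cd160 and Cd244a were at 1210 and 602, 424 and 689, and 321 and 233 CPM in libraries 1 and 3, and Jaml, whose ligand is on epithelium, at 298 and 230. Klrd1 was thus higher in library 1 and Cd160 in library 3.

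Of the 22 genes of the homing and residency list, 13 were abundant enough for that comparison. Itgae, the alpha chain of the integrin that binds E-cadherin, was in 42 of 47 and 157 of 193 cells, and in 71.1% and 39.9% when thinned to 1000 UMIs, at 780 and 491 CPM. Itga1 was at 482 and 370 CPM, the gut homing receptor gene Ccr9 at 161 and 220, and Cd69 at 206 and 183. Ccr7 and S1pr1, which guide cells into and out of lymph nodes, were at 0 in library 1 and at 4.26 and 1.06 CPM in library 3. The transcription factor genes Ikzf2 and Runx3 were at 602 and 510 and at 505 and 341 CPM. Il2rb, a receptor chain for interleukin-15, was at 350 and 304 CPM. Ahr, the aryl hydrocarbon receptor, whose ligands include tryptophan metabolites, was at 63.1 CPM (31.5 to 113) and 116 (95.3 to 140), and its target Cyp1a1 was at 0 in both. Nr1i2, the pregnane X receptor gene, was at 0 and 19.2 CPM, against 54.8 and 57.9 CPM in enterocytes.

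Cd8a, which the rule did not use, was in 36 of 47 gamma-delta cells of library 1 (76.6%) and 133 of 193 of library 3 (68.9%), at 1015 CPM (871 to 1176) and 742 (688 to 799). Thinned to 1000 UMIs, 64.4% and 47.2% of cells held it. In enterocytes 1.01% and 3.63% held a Cd8a UMI. Cells with and without a Cd8a UMI had like depths, with medians of 3454 and 3573 UMIs in library 1 and 3845 and 3539 in library 3.

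Cycling was rare. At least 2 UMIs of the 5 cycling markers were in 2 of 47 cells (4.26%) and 7 of 193 (3.63%). The top 2 cells held 32 of the 35 cycling UMIs of library 1 and 222 of the 264 of library 3.

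The gamma-delta cells were set against CD8-alpha-only alpha-beta T cells, with at least 2 Trac, at least 1 Cd8a and no Trdc, Cd4 or Cd8b1 UMI (53 in library 1, 259 in library 3). Among genes with at least 20 UMIs in the pair of classes in each library and a mean of at least 50 CPM, the genes of the rules and mitochondrial genes were left out of the counts. A gene was counted with a 2-fold difference, on the scale of CPM plus 10, in the same direction in libraries 1 and 3. Of 3042 genes 3 were higher in gamma-delta cells, which is 0.0986%, and 2 were lower, which is 0.0657%. The median log2 ratio over all genes was 0.09 in library 1 and 0.06 in library 3. A ratio between gated classes describes these cells and is not a test.

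Tcrg-C1 was the receptor gene among the 3 higher genes. It was at 786 CPM in gamma-delta against 156 CPM in CD8-alpha-only cells of library 1, and at 726 against 218 CPM in library 3, which is 5.03-fold (3.51 to 7.34) and 3.33-fold (2.90 to 3.84). The other two were Fabp6, an ileal bile acid carrier of enterocytes (log2 ratios 1.36 and 3.49), and Ms4a4b, a membrane gene of T cells (1.09 and 1.77). The lower genes were Spink4, a goblet cell gene (log2 ratios -5.87 and -1.71), and Klre1, an NK receptor gene, at 22.9 CPM in gamma-delta against 82.0 in CD8-alpha-only cells of library 1 and 35.1 against 164 CPM in library 3. Sums of epithelial lists differed between the classes as well. The goblet list summed to 573 CPM in gamma-delta and 15590 in CD8-alpha-only cells of library 1, and the Paneth list to 779 and 22385 CPM in library 3. Per cell, the median share of epithelial UMIs was close, at 0.569% in gamma-delta and 0.522% in CD8-alpha-only cells of library 1. In library 3 it was 0.847% and 0.851%. The highest shares in single cells were 2.47% and 10.3% in library 1 and 11.9% and 13.7% in library 3. The sums thus do not describe the typical cell of either class. Without cells over 10000 UMIs, the higher genes were Tcrg-C1, Thy1 and Cish and the lower ones Klre1, Bcl2l15 and Gm19585. Tcrg-C1 and Klre1 were thus in the counts either way.

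**Figure D3:**
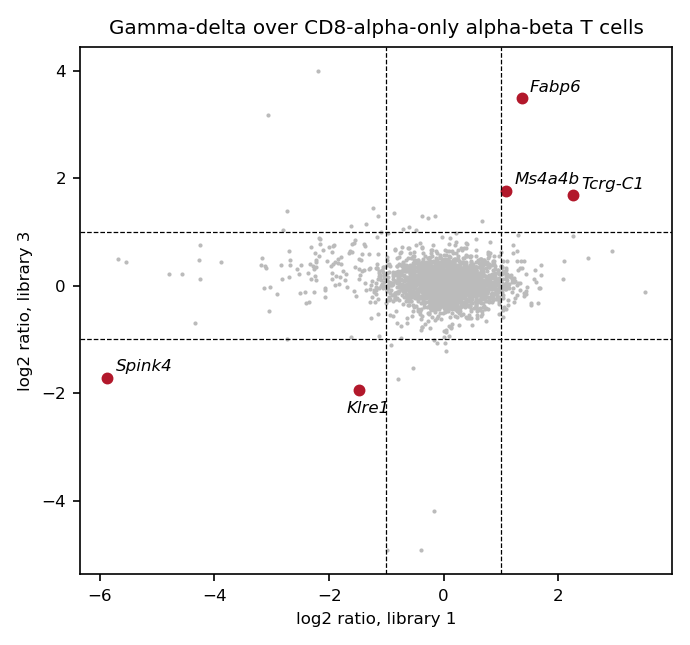
Log2 ratio of CPM plus 10, gamma-delta over CD8-alpha-only alpha-beta T cells, of 3042 genes in library 1 (x axis) and library 3 (y axis), with 1 point a gene and dashed lines at a 2-fold difference. The 5 named red genes lie past the 2-fold lines in both libraries, 3 higher and 2 lower in gamma-delta cells.

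No list had more than 1 counted gene in this comparison. Of 10 cytotoxic granule genes measured, 0 passed, and their median log2 ratio was -0.05 in library 1 and -0.33 in library 3. Of 11 innate-like and NK receptor genes Klre1 alone passed (medians -0.08 and -0.40), and of 13 homing and 11 transcription factor genes 0 passed. Gzma was at 21043 CPM in gamma-delta and 22791 in CD8-alpha-only cells of library 1, which is 0.923-fold (0.886 to 0.962). In library 3 it was at 9222 and 19340 CPM, or 0.477-fold (0.465 to 0.489). The share of cells with at least 5 Gzma UMIs was 70.2% of gamma-delta and 67.9% of CD8-alpha-only cells in library 1, and 40.9% and 66.0% in library 3. The gap in Gzma was thus larger in library 3, and the difference between libraries was not tested. The rules of the classes are also unlike, since only the CD8-alpha-only rule asked for a Cd8a UMI. In library 3, Cd8a was in 70 of 79 gamma-delta cells with at least 5 Gzma UMIs and 52 of 97 with none. In library 1 it was in 28 of 33 and 7 of 13. The part of these unlike rules in the Gzma gap was not tested. In the 6 cells of library 1 with at most 1 Trbc UMI, Gzma was at 14519 CPM, against 22791 CPM in CD8-alpha-only cells. In the 24 such cells of library 3 it was at 14872 against 19340 CPM, so the larger gap in library 3 was not seen in these. The 6 cells of library 1 are too few to say that it was absent.

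Tyrobp was lower in gamma-delta cells of both libraries, short of 2-fold. It was at 1009 CPM in gamma-delta against 1792 CPM in CD8-alpha-only cells of library 1 (0.563-fold, 0.470 to 0.671) and at 835 against 1350 CPM in library 3 (0.619-fold, 0.568 to 0.674). The cells without a Tyrobp UMI made up 57.4% of gamma-delta and 15.1% of CD8-alpha-only cells in library 1, and 52.9% and 22.8% in library 3. Thinned to 1000 UMIs, 33.3% of gamma-delta and 71.7% of CD8-alpha-only cells of library 1 held it, and 34.2% and 62.5% in library 3. Fcer1g showed a smaller gap, at 0.753-fold (0.655 to 0.865) and 0.722-fold (0.677 to 0.770).

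**Figure D4:**
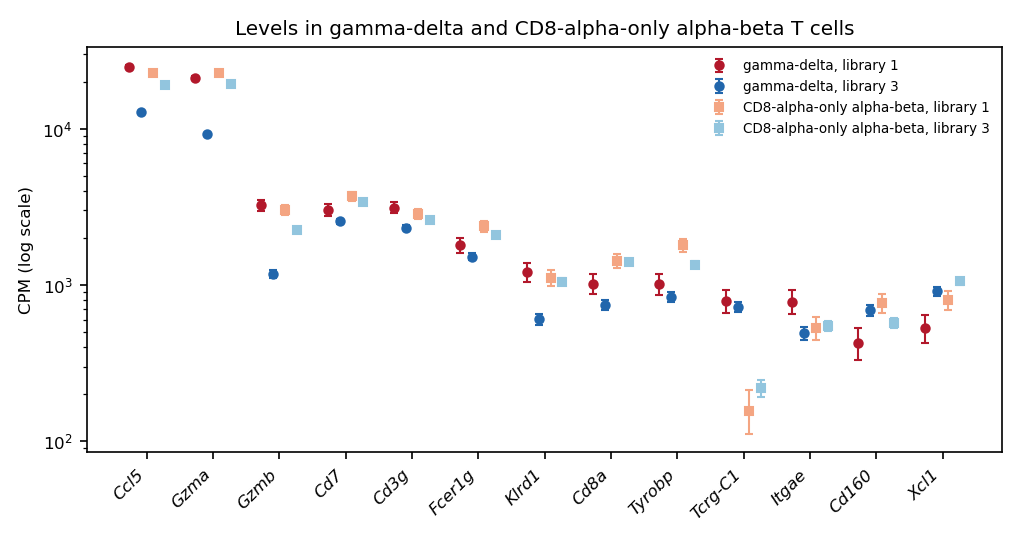
Levels in CPM (log scale) of 13 genes in gamma-delta (circles) and CD8-alpha-only alpha-beta T cells (squares) of libraries 1 and 3, with 95% Poisson intervals as bars. Tcrg-C1 stands apart, at 786 and 726 CPM in gamma-delta against 156 and 218 CPM in CD8-alpha-only cells, and Gzma of library 3 stands at 9222 against 19340 CPM.

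Other lymphocyte classes had at least 20 cells in library 3 alone. Against 30 conventional CD8 alpha-beta T cells, with at least 1 Cd8b1 UMI, 111 of 3147 genes were at least 2-fold higher in gamma-delta cells (3.53%) and 55 at least 2-fold lower (1.75%). The highest ratios included Tcrg-C1, at 726 CPM in gamma-delta against 55.3 CPM in conventional CD8 cells, Tyrobp, at 835 against 104 CPM, and Gm156, at 142 against 0 CPM. The epithelial genes Reg3g, Reg3b, Fabp6, Lgals2, Olfm4, Dmbt1 and Cps1 made up the other 7 of the top 10. Without cells over 10000 UMIs, none of these 7 was in the top 10, which Gm156, Tyrobp and Tcrg-C1 led. Lower in gamma-delta cells were Cd6, a co-receptor of TCR signalling, at 14.9 against 173 CPM, Cd2, an adhesion receptor, at 12.8 against 89.8 CPM, and Themis, a thymocyte signalling gene, at 46.8 against 180 CPM. Without cells over 10000 UMIs, 42 of the 111 higher genes and 45 of the 55 lower ones were still past 2-fold.

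Against 33 CD4 T cells, 151 of 3205 genes were higher in gamma-delta cells (4.71%) and 150 lower (4.68%). Tyrobp was at 835 CPM in gamma-delta against 7.06 CPM in CD4 cells, Fcer1g at 1517 against 63.5 and Klrd1 at 602 against 21.2. Of 9 measured innate-like and NK receptor genes 5 were higher (Cd160, Cd244a, Klrd1, Tyrobp and Cd7) and Cd226 was lower, with a median log2 ratio of 1.22 against -0.03 over all genes. Of 17 measured TCR signal and immediate early genes 8 were lower and 2 higher, with a median of -0.86. Costimulatory and inhibitory receptor genes were among the lower ones. Ctla4 was at 5.32 CPM in gamma-delta against 649 CPM in CD4 cells, Cd28 at 2.13 against 318, Cd5 at 2.13 against 289 and Icos at 1.06 against 233. Without cells over 10000 UMIs, 78 of the 151 higher and 114 of the 150 lower genes were still past 2-fold.

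Against 31 NK and ILC1 cells, chosen by at least 2 UMIs of Ncr1 and Klrb1c and no Cd3 or Trac, 134 of 3297 genes were higher in gamma-delta cells (4.06%) and 185 lower (5.61%). Tcrg-C2 was at 509 CPM in gamma-delta against 0 CPM in NK and ILC1 cells, Tcrg-C1 at 726 against 14.1 CPM, Cd247, the CD3 zeta chain gene, at 103 against 0 CPM, and Gzma at 9222 against 728 CPM. Tcrg-C4 did not follow them, at 452 against 516 CPM. Of 14 innate-like and NK receptor genes 6 were lower and 0 higher, with a median log2 ratio of -0.61 against -0.09 over all genes. Among them, Klrk1, the NKG2D gene, was at 7.45 CPM in gamma-delta against 608 CPM in NK and ILC1 cells, and Klrc1, the NKG2A gene, at 2.13 against 304 CPM. Without cells over 10000 UMIs, 56 of the 134 higher and 123 of the 185 lower genes were still past 2-fold.

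The gamma-delta cells of libraries 1 and 3 were set side by side. Of 3210 genes 58 were at least 2-fold higher in library 1 (1.81%) and 159 at least 2-fold lower (4.95%), with 38 and 71 without cells over 10000 UMIs. Of the first counts, 30 of the 58 and 52 of the 159 were still past 2-fold then. Of 11 cytotoxic granule genes 4 were higher in library 1, with a median log2 ratio of 0.59 against 0.06 over all genes. Gzma was 2.28-fold higher (2.19 to 2.37), Gzmb 2.76-fold (2.49 to 3.06), and Prf1 and Gzmk stood at log2 ratios of 1.57 and 1.48. In the cells with at most 1 Trbc UMI, 6 in library 1 and 24 in library 3, this gap was not seen, with Gzma at 14519 against 14872 CPM and Gzmb at 2082 against 1879 CPM. The 6 cells are too few to say that the gap was absent, since Gzma was close to all or nothing in single cells. Of 12 TCR signal and immediate early genes 5 were lower in library 1 (Egr1, Fos, Fosb, Junb and Ier2) and 2 higher (Nfkbia and Tnfrsf9), with a median of -0.83. Of 9 dissociation and heat shock genes Zfp36 was lower and 0 were higher, with a median of -0.32, and the part of tissue handling in these ratios was not tested. Epithelial genes led the lower ones. Gpx2 and Elf3 had 0 UMIs in library 1, against 165 and 102 CPM in library 3, and Lgals2 was at 91.7 against 815 CPM. Without cells over 10000 UMIs, Gpx2, Elf3 and Lgals2 were not among the 10 lowest genes. Fcgbp of the goblet list and Lyz1 of the Paneth list were, at 30.6 against 127 CPM and 30.6 against 126 CPM. The enterocyte list summed to 5831 CPM in library 1 and 17573 in library 3, and to 12117 CPM in library 3 without cells over 10000 UMIs. The part of epithelial transcripts in these ratios was not tested further, and which diet either library had is not known here.

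To describe how gamma-delta cells differ among themselves, cells with at least 5 Gzma UMIs were set against cells with none, a split chosen after seeing the data. The classes are ranges of 1 value and not cell types, and the 1 and 17 cells between the limits were left out. Cells over 10000 UMIs were also left out, which left 33 against 12 cells in library 1 and 77 against 93 in library 3. Their median depths were 3335 against 4296 UMIs in library 1 and 3060 against 3936 in library 3. Of 3180 genes in library 3, 85 were at least 2-fold higher with Gzma and 40 lower.

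Gzmb and the chemokine genes Ccl4 and Ccl5 were higher in the cells with Gzma. Gzmb was at 4913 CPM in Gzma-positive against 847 CPM in Gzma-negative cells of library 1, and at 3660 against 108 CPM in library 3. Ccl4 had 82 against 1 UMIs in library 1 and was at 1170 against 52.6 CPM in library 3, and Ccl5 at 37479 against 4504 and 32477 against 5798 CPM. Itgae, Itga1, Klrd1 and Nkg7 were also higher with Gzma in both libraries, with Itgae at 990 against 342 CPM in library 1 and 857 against 478 CPM in library 3. The receptor genes moved little. Tcrg-C1 was at 838 against 775 CPM in library 1 and 993 against 826 CPM in library 3.

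Tcf7, Id3 and Xcl1 were lower in the cells with Gzma. Tcf7, a transcription factor gene of naive and memory-type T cells, was at 0 CPM in Gzma-positive against 180 CPM in Gzma-negative cells of library 1, and at 3.68 against 200.2 CPM in library 3. Over all depths it was in 0 of 33 against 5 of 13 cells and in 1 of 79 against 54 of 97 cells. Id3 was at 19.0 against 216 CPM in library 1 and 29.4 against 198 CPM in library 3. In enterocytes Id3 was at 182 and 197 CPM and Tcf7 at 0.629 and 0.705 CPM. Xcl1 was at 267 against 1063 CPM in library 1 and 419 against 1364 CPM in library 3. Cd160, Ltb, Kit and Thy1 were lower with Gzma in both libraries, with Cd160 at 248 against 793 and 423 against 1036 CPM.

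The 10 genes highest and the 10 lowest in library 3 were then read in library 1, which had not chosen them. Of the higher 10, 9 had the same direction there, all but Klre1, with a median log2 ratio of 1.95 against 2.46 in library 3. All 10 of the lower genes had the same direction, with a median of -1.73 against -2.03. These counts have no share over all genes beside them, so whether they differ from it is not shown. The enterocyte gene Fabp2 was at 1676 against 1009 CPM in library 1 and 2670 against 2693 CPM in library 3.

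**Figure D5:**
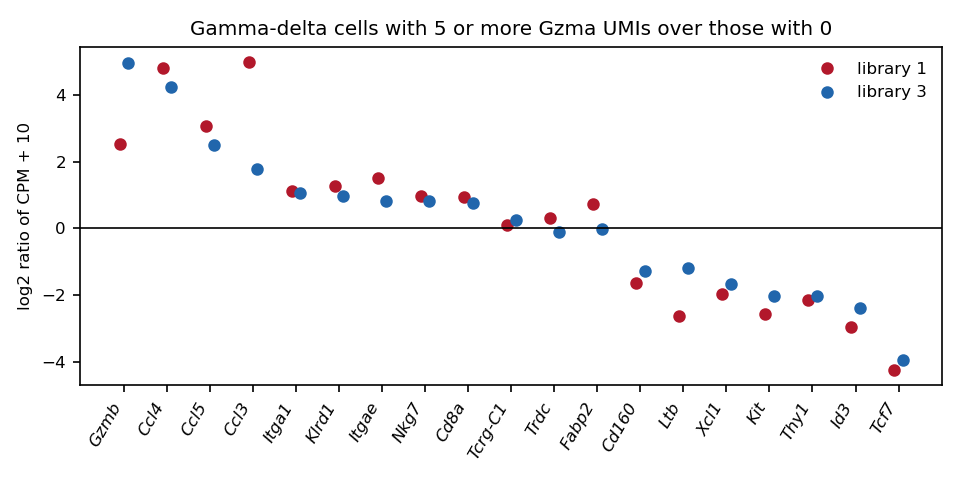
Log2 ratio of CPM plus 10, gamma-delta cells with at least 5 Gzma UMIs over those with 0, without cells over 10000 UMIs, for 19 genes in libraries 1 and 3. Gzmb, Ccl4 and Ccl5 lie above 2 in both libraries, Trdc and Tcrg-C1 near 0, and Tcf7 near -4. Fabp2 lies near 0 in library 3 and above 0 in library 1. Ccl3 in library 1 and Tcf7 in library 1 are set against a class at 0, so their ratios depend on the 10 CPM added.

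In a split by Cd8a fewer of the genes carried over, again with no share over all genes beside the counts. Of the 10 genes higher in cells with Cd8a in library 3, 8 had the same direction in library 1 (median log2 ratios 1.61 in library 1 and 1.83 in library 3). Of the 10 lower, among them Ms4a4b, Thy1 and Il7r, 7 did (medians -0.78 and -1.52).

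The promoters of granzyme A, granzyme B and Xcl1 are shown because Gzma and Gzmb were high in the same cells and Xcl1 in the others. Each is the 250 bases before the gene's start, 5′ to 3′ on the gene's strand, from RefSeq on GRCm38.p6: Gzma at chr13:113100982-113101231 (minus strand), Gzmb at chr14:56262335-56262584 (minus) and Xcl1 at chr1:164935523-164935772 (minus). Capitals mark the RUNX core, TGTGGT or ACCACA on the other strand, since Runx3 was detected in 34 of 47 and 142 of 193 gamma-delta cells.
Gzma promoter: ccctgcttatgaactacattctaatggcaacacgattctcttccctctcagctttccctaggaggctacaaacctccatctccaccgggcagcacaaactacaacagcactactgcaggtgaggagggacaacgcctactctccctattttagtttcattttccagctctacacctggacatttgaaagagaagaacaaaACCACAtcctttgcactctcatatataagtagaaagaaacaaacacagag
Gzmb promoter: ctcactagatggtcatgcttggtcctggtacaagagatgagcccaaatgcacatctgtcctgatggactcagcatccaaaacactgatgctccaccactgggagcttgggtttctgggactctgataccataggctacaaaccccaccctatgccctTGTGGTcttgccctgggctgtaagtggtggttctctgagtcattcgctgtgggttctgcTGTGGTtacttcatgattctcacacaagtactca
Xcl1 promoter: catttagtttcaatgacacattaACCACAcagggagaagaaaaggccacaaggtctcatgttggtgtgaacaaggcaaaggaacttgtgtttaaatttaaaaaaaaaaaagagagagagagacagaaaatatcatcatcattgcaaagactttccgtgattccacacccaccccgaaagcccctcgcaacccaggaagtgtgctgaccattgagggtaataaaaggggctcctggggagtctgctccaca
The RUNX core occurred 1 time before Gzma (starting 50 bases upstream), 2 times before Gzmb (93 and 34 bases) and 1 time before Xcl1 (227 bases), and in 14.0% of 32851 promoters of this length, with 2 or more in 1.27%. An ETS core, GGAAGT or ACTTCC, occurred 1 time before Xcl1 (57 bases) and in 19.7% of all promoters. An AP-1 motif, TGANTCA, occurred 1 time before Gzmb (58 bases) and in 6.75%. A match is a description of letters and not a bound site, and Ccl5 had no entry to search.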

How the data were processed

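The deposited matrix holds raw UMI counts, whole numbers for each gene in each barcode, as its header and values show. The submitters' processing notes name Cell Ranger 6.1.1 and mm10. What aligner settings, annotation and barcode filter were used is not given in the sources used here. Of 32285 genes, all 108 marker symbols and 291 of 294 list symbols were found, all but Mx1, Mx2 and Scart2.

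Quality limits, the gamma-delta rule and rules for the other classes (B cells with at least 2 UMIs of Cd79a and Ms4a1; enterocytes with at least 1% Fabp1 and no Cd3 or Ptprc UMI) were applied to the counts with numpy 2.4.6, scipy 1.17.1 and pandas 2.3.3. UMIs were summed per class and library and scaled to CPM, with exact Poisson intervals, and ratios of sums have exact conditional intervals. Log2 ratios are of CPM plus 10. Scrublet scores came from scanpy 1.11.5 and TMM scaling from edgeR 4.0.16, each for an alternative. A planned edgeR test of the diets was not run, because no label ties a barcode number to a sample, and a matrix with no such map is 1 sample. Named genes are those of the gene lists, the 10 highest and 10 lowest of each comparison, and the 10 most abundant; genes of the Gzma and Cd8a splits were chosen after their values were seen. The members and lists were chosen with earlier results of these data known. The counting steps were tested on simulated data. Gene coordinates are from GENCODE on GRCm38, the build that mm10 names.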

Additional observations from a re-analysis of the deposited data

Results flagged for a closer look

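Barcodes outside the quality filter also met the gene limits of the gamma-delta rule. There were 18, with 3 in library 1 and 15 in library 3, and each was outside only through a mitochondrial share over 25%. They had a median of 9253 UMIs and of 34.9% mitochondrial UMIs. Trdc stood at 561 CPM, Gzma at 6999 CPM and Ccl5 at 9584 CPM in them.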

How the results depend on the processing

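In the settings that left at least 20 cells in each class and library, no gene counted as past 2-fold and followed singly changed direction. Of the single gene ratios followed, 160 were classed as the same and 45 as moved, and of the gene counts 100 and 40. With at most 1 Trbc UMI, library 1 held 6 cells and the comparison of libraries was not run. Gzma was then at 14519 CPM in library 1 against 14872 in library 3, so its higher level in library 1 was not seen. With 6 cells and a gene close to all or nothing, these values cannot decide whether its direction held. Ratios not counted changed sign in places. Ccl5 against CD8-alpha-only cells in library 1 had a log2 ratio of 0.11, and of -0.07 without the top 6% of Scrublet scores, where Epcam was at 196 in gamma-delta against 148 CPM in CD8-alpha-only cells (206 against 812 CPM in all). With at most 1 Trbc UMI, gamma-delta cells of library 3 held Cd160 at 351 against 574 CPM in CD8-alpha-only cells (689 in all gamma-delta cells) and Ccl4 at 703 against 609 CPM (396 in all). Of the shares of kept cells 12 values stayed within counting error and 6 moved. In library 1 the share was 0.0972% with at most 1 Trbc UMI. In library 3 it was 3.65% at 15% mitochondrial UMIs, 2.43% at 50%, 2.60% with at least 3 Trdc UMIs, 3.63% with at least 1 and 0.381% with at most 1 Trbc UMI. Thinning took Cd8a to 47.2% and Xcl1 to 45.6% of cells in library 3. Gene counts are given as higher and lower. Against CD8-alpha-only cells, 5 were higher under 0.5% Fabp1, 5 and 6 passed with a prior of 1 CPM, 11 and 12 with no filter, 24 and 20 at a log2 ratio of 0.5, 21 and 26 without library 1, and 106 and 161 without library 3. There, 4 were lower at 15% mitochondrial UMIs, 8 with at least 3 Trdc UMIs and 7 with TMM, which moved the median by -0.12 in library 1 (by 0.14 against NK and ILC1 cells). With at most 1 Trbc UMI that comparison had too few cells in library 1. With no filter, counts were 1062 and 326 against conventional CD8, 1170 and 563 against CD4, 946 and 645 against NK and ILC1 cells, and 318 and 981 for library 1 against library 3. At 0.5 they were 443 and 385, 517 and 517, 446 and 674, and 469 and 450. Against conventional CD8 cells 94 were lower with at most 1 Trbc UMI, and against NK and ILC1 cells 72 were higher under 0.5% Fabp1. For library 1 against library 3, 38 and 53 passed under 0.5% Fabp1, 38 and 71 without cells over 10000 UMIs, 36 higher with TMM, 93 higher with a prior of 1 CPM, 90 lower without the top 6% of Scrublet scores and 69 lower with each cell weighted equally. The causes were not tested. No paired analysis was possible because the barcode numbers carry no replicate or diet. The depth, medians of 3551 and 3700 UMIs a cell, limits shares of cells with weakly expressed genes.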
